A study of Mus musculus with 5 samples.

Results

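The ATF4 program described here comprises 44 named genes of 54100 in the deposited table, measured by RNA sequencing of B16F10 cells, a mouse line that grows as pigmented melanoma. The genes were chosen by symbol and fall into 4 roles: 12 regulators and feedback genes, 12 enzymes of amino acid and one-carbon metabolism, 8 amino acid transporters and 12 aminoacyl-tRNA synthetases. All 44 symbols were found among the table's Ensembl identifiers through the GENCODE M21 annotation of GRCm38, where Mars1 is listed as Mars. A second, short Ensembl identifier named Ddit3 held at most 1 count in a library and was left out.

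ATF4 is a transcription factor made in larger amounts when kinases that sense missing amino acids, misfolded protein in the endoplasmic reticulum, haem shortage or double-stranded RNA phosphorylate the translation factor eIF2α. This phosphorylation slows general protein synthesis while favouring translation of the Atf4 mRNA, so that ATF4 protein and Atf4 mRNA need not move together. Its known targets rebuild amino acid supply: asparagine and serine synthesis, mitochondrial one-carbon enzymes, amino acid importers and the enzymes that load amino acids onto tRNA. Other targets, among them CHOP (Ddit3), TRIB3, CHAC1 and GADD34 (Ppp1r15a), steer the stress response towards its end or towards cell death.

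Each of the 5 groups had 1 library, made from 3 pooled repeats. They were dynamic suspension culture and conventional three-dimensional (3D) culture, both labelled wild type and described as ways to enrich melanoma stem cells, a line labelled HIF-1α overexpression, a line labelled HIF-1α knockdown, and shControl, labelled wild type. HIF-1α is the oxygen-regulated transcription factor whose relation to stem-like tumour cells and p53 the series addresses by its title. All samples carry the label "NO" for treatment and the same growth protocol (DMEM/F12 without serum, shaken at 60 to 80 rpm, harvested after 7 to 10 days), so the 2 culture groups are told apart by their titles alone. How the knockdown and overexpression were made, and from how many clones, is not given in the sources used here. With 1 library a group no difference has a replicate check, no test across conditions was possible, and every comparison below is between 2 libraries.

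Hif1a itself was at 384 CPM (the count relative to the library total, with totals scaled by TMM, the trimmed mean of M values) in the library labelled overexpression and 95.1 CPM in the library labelled knockdown, against 61.3 CPM in shControl. The label and the measured level of its target gene thus disagree for the knockdown library, and no direction drawn from it below stands for less Hif1a. Hif1a was at 390.5 CPM in dynamic suspension and 542 CPM in conventional 3D culture, both labelled wild type. The lowest level was thus that of shControl, which is also labelled wild type. The library labelled overexpression exceeded neither culture library, and its label matches its Hif1a level only beside shControl and labelled knockdown. The values of the dynamic suspension, conventional 3D and shControl columns summed to 59493240 to 61267892 and look like estimated counts, with more genes at 4 than at 3. Those of the libraries labelled overexpression and knockdown summed to 15393189 and 14803426 and look like plain counts, so group and column type cannot be told apart where either of them is set against shControl. The share of values in pseudogenes moved with the column type, at 3.44% to 4.81% in the first 3 and 0.714% and 0.918% in the other 2, and its part in the results was not tested. All 7 melanocyte markers exceeded a mean of 1 CPM and summed to 18000 CPM in dynamic suspension, 30800 in conventional 3D culture, 27600 in labelled overexpression, 14700 in labelled knockdown and 24400 in shControl. Of 8 fibroblast markers 6 averaged 1 CPM or more, and all 8 summed to 129 CPM in conventional 3D culture and 15.8 to 38.4 CPM elsewhere. Of 8 immune and 5 endothelial markers 1 each reached that mean (Cd68 and Vwf), and the whole lists summed to 0.853 to 13.2 and 1.85 to 10.7 CPM, with Cd3e, Itgam, Ms4a1, Cdh5 and Tek at 0 in every library. Of 5 epithelial markers 0 reached it. In bulk RNA, fewer cells of a type and less RNA per cell cannot be told apart.

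ATF4 binds DNA as a dimer with C/EBP-family partners at a composite element with the core TGATGNAA, whose reverse complement is TTNCATCA. The stretches below are shown because they carry this core upstream of a RefSeq start of genes on which the results turn, and of Got1 and Nupr1, which carry it and did not share the pattern of most others. They are RefSeq promoter sequences of build GRCm38.p6, read 5′ to 3′ on the gene's own strand, with the core in capitals on whichever strand it lies. Where an exon of the gene is annotated there, the stretch was kept to 30 bases.
Chac1: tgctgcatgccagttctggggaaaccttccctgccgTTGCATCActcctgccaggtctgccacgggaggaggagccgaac
Atf3: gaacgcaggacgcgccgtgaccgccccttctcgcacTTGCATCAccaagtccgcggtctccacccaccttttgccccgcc
Nupr1: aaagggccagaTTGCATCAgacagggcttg
Asns: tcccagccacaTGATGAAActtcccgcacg
Slc7a11: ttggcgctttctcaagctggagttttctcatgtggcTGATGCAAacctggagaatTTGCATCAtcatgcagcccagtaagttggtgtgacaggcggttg
Gars: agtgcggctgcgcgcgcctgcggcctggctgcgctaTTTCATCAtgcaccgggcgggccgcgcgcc
Got1: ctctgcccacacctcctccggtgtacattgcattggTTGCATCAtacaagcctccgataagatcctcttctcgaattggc
These stretches lie at chr2:119351013-119351092 (plus strand) for Chac1, chr1:191183400-191183479 (minus strand) for Atf3, chr7:126625562-126625591 (minus strand) for Nupr1 and chr6:7693214-7693243 (minus strand) for Asns. Those of Slc7a11, Gars and Got1 lie at chr3:50443617-50443715 (minus strand), chr6:55037935-55038000 (plus strand) and chr19:43524664-43524743 (minus strand). Slc7a11 holds 2 cores, 1 on each strand, and the others in this set hold 1 each. The stretches of Atf3, Nupr1 and Asns precede a RefSeq start and lie inside the longer genes annotated by GENCODE.

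A promoter window, 250 bases before to 50 after a start, was in the RefSeq table for 36 of the 44 genes. The core was present in 15 of these 36 genes (41.7%), against 723 of 17492 protein-coding genes (4.13%) and 1219 of 27025 genes of any kind (4.51%). By role it was found in 5 of 12 regulators (Atf3, Chac1, Trib3, Vldlr and Nupr1), 3 of 10 enzymes (Asns, Pycr1 and Got1), 2 of 6 transporters (Slc7a11 and Slc1a4) and 5 of 8 tRNA synthetases (Aars, Gars, Tars, Iars and Yars). Many of the genes are on the list because they are known ATF4 targets, so this share describes the list and is not an independent result. A match is a description of letters and not a binding site, and windows without it may hold other forms of the element.

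**Figure D1:**
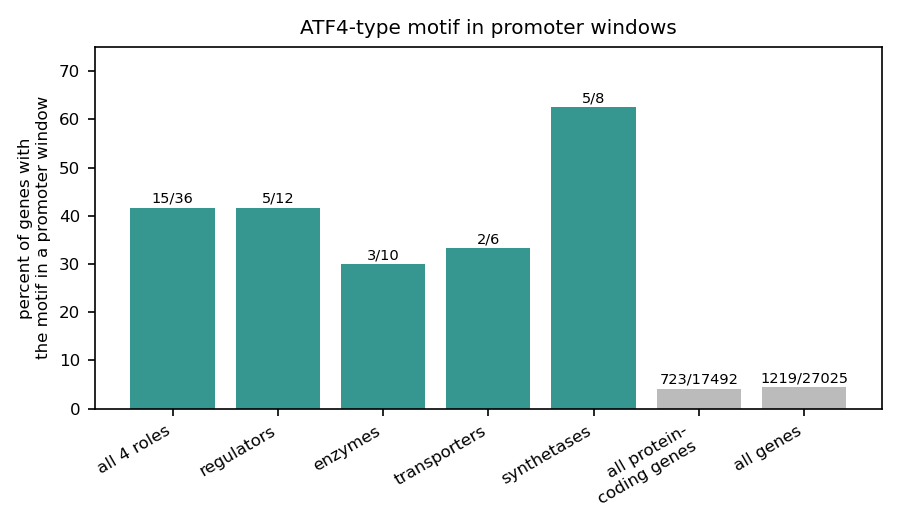
Share of genes (percent, vertical axis from 0) with the core TGATGNAA or its reverse complement in a RefSeq promoter window, for the 36 listed genes that have a window, for each role, and for all protein-coding genes and all genes. The number above each bar gives genes with the core over genes with a window: 15 of 36 listed genes hold it, against 4.13% of protein-coding genes.

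Most of the 44 genes had the same library on top. The library labelled knockdown was highest for 40 of 44 genes (90.9%), whereas it was highest for 26.1% of the 12848 genes that averaged 1 CPM or more. The exceptions were Ddit3, Nupr1 and Got1, highest in dynamic suspension, and Nars, whose 2 highest levels, 377 CPM in the library labelled knockdown and 383 CPM in shControl, overlapped within counting error. With other scalings the count was 36 to 41 of 44. Conventional 3D culture was lowest for 9 of 12 regulators, the library labelled overexpression for 7 of 12 tRNA synthetases and dynamic suspension for 5 of 12 enzymes. Over the 12848 genes these libraries were lowest for 1731, 2695 and 2567 genes. Dynamic suspension and labelled overexpression were lowest for 3 transporters each, and no difference between roles was tested. In sum the 44 genes took 0.598% of all values in dynamic suspension, 0.479% in conventional 3D culture, 0.518% in the library labelled overexpression, 1.66% in the library labelled knockdown and 0.897% in shControl. The library labelled overexpression, the other with plain counts, was highest for 0 of the 44, and the part of column type in these orders was not tested.

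**Figure D2:**
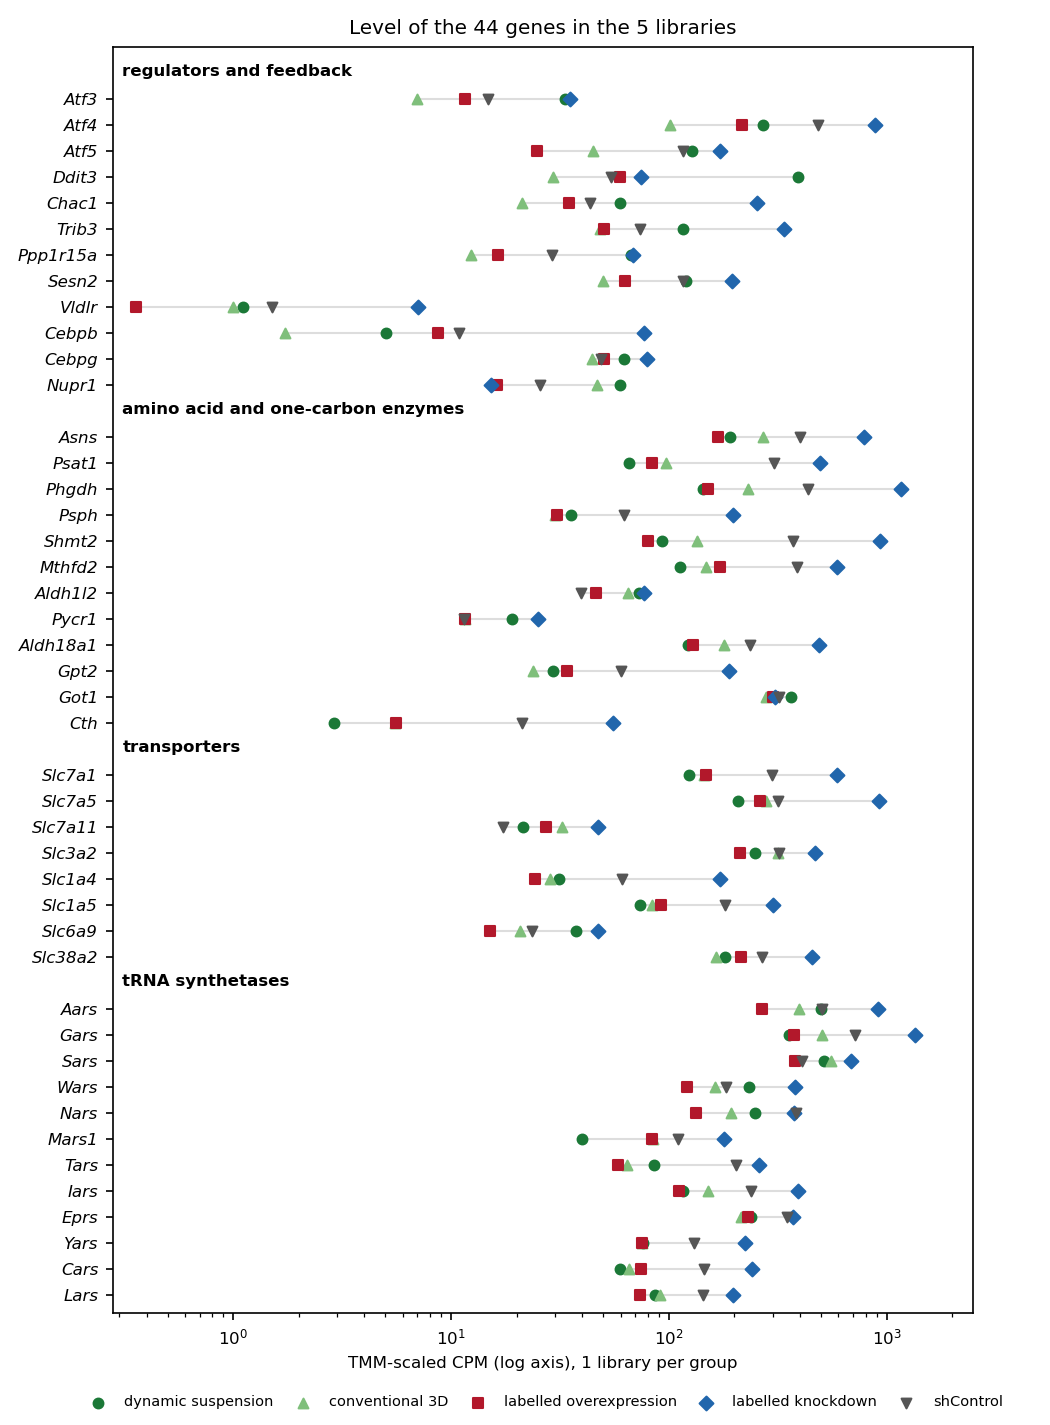
Level of each of the 44 genes (rows, grouped by role) in the 5 libraries, in TMM-scaled CPM on a log axis, 1 point per library and a grey line over their range. Blue diamonds of the library labelled knockdown lie at the right end in 40 rows, and Ddit3 at 391 CPM in dynamic suspension is the main departure among the regulators.

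Among the regulators, Atf4 (ENSMUSG00000042406, chromosome 15, 80255184 to 80257541, plus strand, protein-coding) was at 270.1 CPM in dynamic suspension, 101 in conventional 3D culture, 216 in labelled overexpression, 881 in labelled knockdown and 483 in shControl. Each of these 5 levels lay outside the 95% Poisson interval of its neighbours, for example 866 to 896 CPM in the library labelled knockdown. Chac1 (ENSMUSG00000027313, chromosome 2, 119351229 to 119354381, plus strand), an enzyme that degrades glutathione, was at 59.9 CPM in dynamic suspension, 21.1 in conventional 3D culture, 34.9 in labelled overexpression, 255 in labelled knockdown and 43.5 in shControl. Trib3, a pseudokinase that restrains ATF4 and AKT signalling, was at 116 CPM in dynamic suspension, 48.3 in conventional 3D culture, 50.5 in labelled overexpression, 336 in labelled knockdown and 73.5 in shControl. For both, the library labelled knockdown stood far above the other 4, and dynamic suspension came next.

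Ddit3 (ENSMUSG00000025408, chromosome 10, 127290774 to 127296288, plus strand), which encodes CHOP, had another order. It was at 391 CPM in dynamic suspension, 29.3 in conventional 3D culture, 59.6 in labelled overexpression, 74.2 in labelled knockdown and 54.3 in shControl. Dynamic suspension was thus the outlying library for Ddit3, and the levels in labelled overexpression and shControl overlapped within counting error. Ppp1r15a, the phosphatase subunit that reverses eIF2α phosphorylation, was at 67.4 CPM in dynamic suspension, 12.3 in conventional 3D culture, 16.5 in labelled overexpression, 68.1 in labelled knockdown and 29.1 in shControl. The 2 highest levels of Ppp1r15a, in the library labelled knockdown and dynamic suspension, overlapped within counting error. Atf3, a repressor of the same family, likewise had its 2 highest levels there, 33.2 CPM in dynamic suspension and 35.2 CPM in labelled knockdown, over a range of 6.99 to 35.2 CPM.

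Atf5, a relative of ATF4 that is also translated under eIF2α phosphorylation, was at 128 CPM in dynamic suspension, 44.9 in conventional 3D culture, 24.9 in labelled overexpression, 171 in labelled knockdown and 117 in shControl. It was lowest in the library labelled overexpression. Cebpb, a C/EBP factor that pairs with ATF4, was at 5.03 CPM in dynamic suspension, 1.73 in conventional 3D culture, 8.69 in labelled overexpression, 76.5 in labelled knockdown and 10.9 in shControl. Of its exon bases 20.7% overlap Tmem189 on the opposite strand, which was at 95.4 to 198 CPM, so its low values are uncertain. Vldlr, a lipoprotein receptor, was at 1.11 CPM in dynamic suspension, 0.996 in conventional 3D culture, 0.357 in labelled overexpression, 7.09 in labelled knockdown and 1.51 in shControl. Its level in labelled overexpression rests on 6 counts, and those in dynamic suspension, conventional 3D culture and shControl overlapped within counting error. The other 3 regulators had the narrowest spans: Sesn2, a leucine-sensing inhibitor of mTORC1, ranged over 49.7 to 194 CPM, and Cebpg, the usual dimer partner of ATF4, over 44.3 to 79.4 CPM. Nupr1, a small chromatin-associated stress protein, ranged over 15.2 to 59.5 CPM and was the sole member with its lowest level in the library labelled knockdown, where it overlapped labelled overexpression within counting error.

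The enzymes of serine synthesis and mitochondrial one-carbon metabolism showed a wide span with the same top library. Phgdh, the first enzyme of serine synthesis, was at 143 CPM in dynamic suspension, 232 in conventional 3D culture, 151 in labelled overexpression, 1167 in labelled knockdown and 436 in shControl. Psat1, the second step, was at 65.9 CPM in dynamic suspension, 97.5 in conventional 3D culture, 84.1 in labelled overexpression, 494 in labelled knockdown and 306 in shControl. Psph, the last step, was at 35.6 CPM in dynamic suspension, 29.9 in conventional 3D culture, 30.7 in labelled overexpression, 198 in labelled knockdown and 62.4 in shControl. All 3 steps had the library labelled knockdown first and shControl second. The value of Phgdh is uncertain, since 56.3% of the distinct 31-base words in its transcripts occur in another annotated gene, while Psph overlaps Cct6a over 10.4% of its exon bases.

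Shmt2 (ENSMUSG00000025403, chromosome 10, 127517123 to 127522444, minus strand), which moves the one-carbon unit of serine onto folate in mitochondria, was at 93.1 CPM in dynamic suspension, 134 in conventional 3D culture, 80.6 in labelled overexpression, 930.3 in labelled knockdown and 371 in shControl. This was an 11.5-fold span, second among the enzymes to Cth. Mthfd2, the next mitochondrial folate enzyme, was at 112 CPM in dynamic suspension, 148 in conventional 3D culture, 172 in labelled overexpression, 590.3 in labelled knockdown and 388 in shControl. Asns, asparagine synthetase and the classic amino acid response gene, was at 192 CPM in dynamic suspension, 272 in conventional 3D culture, 168 in labelled overexpression, 788 in labelled knockdown and 399 in shControl. Cth, which makes cysteine in the transsulfuration pathway, was at 2.90 CPM in dynamic suspension, 5.51 in conventional 3D culture, 5.60 in labelled overexpression, 55.2 in labelled knockdown and 21.3 in shControl. It had the widest span of the enzymes, 19.1-fold. Gpt2, a mitochondrial alanine transaminase, was at 29.2 CPM in dynamic suspension, 23.8 in conventional 3D culture, 34.2 in labelled overexpression, 189 in labelled knockdown and 60.3 in shControl.

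The proline enzymes differed from each other. Aldh18a1, the first step of proline synthesis, ranged over 122 to 491 CPM and Pycr1, the last step, over 11.4 to 25.1 CPM, both highest in the library labelled knockdown. The levels of Pycr1 in conventional 3D culture, labelled overexpression and shControl overlapped within counting error. Aldh1l2, a mitochondrial folate dehydrogenase, ranged over 39.6 to 77.3 CPM and was lowest in shControl. Got1, the cytosolic aspartate transaminase, had the narrowest span of the 44 genes, 1.30-fold over 279 to 363 CPM.

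All 8 transporters were highest in the library labelled knockdown. Slc7a5 (ENSMUSG00000040010, chromosome 8, 121881150 to 121907694, minus strand), the LAT1 importer of large neutral amino acids, was at 208 CPM in dynamic suspension, 279.8 in conventional 3D culture, 262 in labelled overexpression, 918 in labelled knockdown and 316 in shControl. Its heavy chain Slc3a2 was at 249 CPM in dynamic suspension, 316 in conventional 3D culture, 212 in labelled overexpression, 469.6 in labelled knockdown and 322 in shControl. The light chain thus spanned more than its partner, 4.42-fold against 2.22-fold. Slc7a11, the cystine importer that shares this heavy chain, was at 21.4 CPM in dynamic suspension, 32.5 in conventional 3D culture, 27.1 in labelled overexpression, 47.1 in labelled knockdown and 17.4 in shControl. For Slc7a11 the lowest library was shControl, unlike the other 7 transporters.

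Slc7a1, the cationic amino acid importer, was at 124 CPM in dynamic suspension, 145 in conventional 3D culture, 148 in labelled overexpression, 595 in labelled knockdown and 297 in shControl. Slc1a4, a carrier of alanine, serine and cysteine, was at 31.2 CPM in dynamic suspension, 28.5 in conventional 3D culture, 24.4 in labelled overexpression, 172 in labelled knockdown and 60.9 in shControl. Slc1a5, the glutamine carrier ASCT2, was at 73.5 CPM in dynamic suspension, 83.7 in conventional 3D culture, 92.2 in labelled overexpression, 301 in labelled knockdown and 181 in shControl. In these 3 genes shControl was second and the other 3 libraries lay below it. Slc38a2, the adaptive neutral carrier SNAT2, was at 181 CPM in dynamic suspension, 165 in conventional 3D culture, 215 in labelled overexpression, 456 in labelled knockdown and 268 in shControl. Slc6a9, a glycine transporter, was at 37.3 CPM in dynamic suspension, 20.7 in conventional 3D culture, 15.1 in labelled overexpression, 47.3 in labelled knockdown and 23.7 in shControl. Here dynamic suspension, not shControl, came second, and 30.3% of its exon bases overlap Ccdc24.

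The tRNA synthetases spanned from 1.74-fold for Eprs, the glutamyl-prolyl enzyme, to 4.50-fold for Mars1, the methionyl enzyme. Gars (ENSMUSG00000029777, chromosome 6, 55038007 to 55079500, plus strand), the glycyl enzyme, was at 357 CPM in dynamic suspension, 505 in conventional 3D culture, 377 in labelled overexpression, 1344 in labelled knockdown and 715 in shControl. Aars, the alanyl enzyme, was at 498 CPM in dynamic suspension, 398 in conventional 3D culture, 268 in labelled overexpression, 917 in labelled knockdown and 504 in shControl. Wars, the tryptophanyl enzyme, was at 234 CPM in dynamic suspension, 163 in conventional 3D culture, 121 in labelled overexpression, 380.3 in labelled knockdown and 183 in shControl. In Gars the library next to the top was shControl, in Wars it was dynamic suspension, and in Aars those 2 overlapped within counting error.

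Mars1 was at 39.9 CPM in dynamic suspension, 84.4 in conventional 3D culture, 83.9 in labelled overexpression, 179.5 in labelled knockdown and 110.0 in shControl. Tars, the threonyl enzyme, was at 85.8 CPM in dynamic suspension, 64.1 in conventional 3D culture, 58.4 in labelled overexpression, 259 in labelled knockdown and 202 in shControl. Cars, the cysteinyl enzyme, was at 59.5 CPM in dynamic suspension, 65.3 in conventional 3D culture, 74.9 in labelled overexpression, 241 in labelled knockdown and 145 in shControl. These 3 genes had the library labelled knockdown and then shControl at the top, with dynamic suspension lowest for Mars1 and Cars. Iars, the isoleucyl enzyme, was at 117 CPM in dynamic suspension, 151 in conventional 3D culture, 111 in labelled overexpression, 389.8 in labelled knockdown and 238 in shControl. Yars, the tyrosyl enzyme, was at 76.4 CPM in dynamic suspension, 74.9 in conventional 3D culture, 75.7 in labelled overexpression, 223 in labelled knockdown and 131 in shControl. Its 3 lowest levels overlapped within counting error. Of the rest, Sars, the seryl enzyme, ranged over 379.9 to 687 CPM, Nars, the asparaginyl enzyme, over 134 to 383 CPM, Lars, the leucyl enzyme, over 73.9 to 196 CPM and Eprs over 215 to 373 CPM.

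Set against each other per length (TPM, the count per exon length relative to all genes of the same library), Phgdh at 1495 TPM, Gars at 1373 TPM and Atf4 at 1191 TPM stood highest in the library labelled knockdown. In shControl the same genes were at 504, 659 and 589.5 TPM. In dynamic suspension Ddit3 led with 618 TPM, above Got1 at 387 TPM and Atf4 at 310.2 TPM. Vldlr was at 2.24 TPM or less in every library.

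Differences beyond 2-fold between dynamic suspension and conventional 3D culture lay mostly among the regulators. Of the 44 genes, 9 were higher beyond 2-fold and 1 lower, where 6.44% of all genes tested were higher and 7.64% lower (14.1% in either direction). Beyond 2-fold means a log2 ratio of at least 1 in size, a mean of at least 1 CPM and a counting interval that excludes equality. All 9 higher genes were among the 12 regulators. Ddit3 stood first, at 391 CPM in dynamic suspension against 29.3 CPM in conventional 3D culture (log2 ratio 3.73, 95% counting interval 3.66 to 3.81, which covers counting error only). The log2 ratios of the other 8 were 2.44 for Ppp1r15a, 2.24 for Atf3, 1.52 for Cebpb, 1.51 for Atf5, 1.5 for Chac1, 1.42 for Atf4, 1.27 for Trib3 and 1.27 for Sesn2. The other 3 regulators had log2 ratios of 0.49 for Cebpg, 0.35 for Nupr1 and 0.15 for Vldlr. Among 12 enzymes and 8 transporters 0 were beyond 2-fold in either direction. The lower gene was Mars1 at 39.9 CPM in dynamic suspension against 84.4 CPM in conventional 3D culture (log2 ratio -1.08, 95% counting interval -1.15 to -1.01). Mars1 adjoins Ddit3 on the opposite strand and overlaps it over 1.99% of its exon bases, and the part of this overlap in its ratio was not tested.

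The median log2 ratio was 1.46 for the regulators, -0.45 for the enzymes, -0.21 for the transporters and -0.03 for the synthetases, against -0.02 over all 12875 genes tested. Asns, Psat1, Phgdh, Shmt2 and Mthfd2 had log2 ratios of -0.50, -0.57, -0.70, -0.53 and -0.40, each on the opposite side of 0 from Atf4. Of the 12 enzymes 7 lay below 0 and 5 above it, on the side of Atf4: Psph, Aldh1l2, Pycr1, Gpt2 and Got1. Scaling by total counts moved the median of all genes up by 0.189 and turned the synthetase median to 0.16 and the split of all genes to 1117 higher and 703 lower, against 829 and 984 with TMM. The enzyme median was then -0.26, and the regulator median was 1.69, with Vldlr below the filter on low values. With that scaling Mars1 was no longer beyond 2-fold and Slc6a9, a transporter, was higher with a log2 ratio of 1.04. Beside this, the fibroblast markers had 0 higher and 6 lower of 8 measured and the melanocyte markers 0 higher and 1 lower of 7 measured, and their part in these ratios was not tested.

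Between the library labelled knockdown and shControl, 18 of the 44 genes were higher beyond 2-fold and 0 lower, where 8.05% of 12639 genes tested were higher and 15.7% lower (23.7% in either direction). They comprised 6 of 12 regulators, 7 of 12 enzymes, 4 of 8 transporters and 1 of 12 synthetases. Cebpb (2.80), Chac1 (2.55), Vldlr (2.20) and Trib3 (2.19) had the largest log2 ratios. Chac1 was at 255 CPM in labelled knockdown against 43.5 CPM in shControl, with a counting interval of 2.48 to 2.62 for the log2 ratio. Among the enzymes Psph (1.66), Gpt2 (1.65), Phgdh (1.42), Cth (1.37), Shmt2 (1.33), Pycr1 (1.13) and Aldh18a1 (1.06) passed. Asns, at 788 CPM in labelled knockdown against 399 CPM in shControl and a log2 ratio of 0.98, came just short of it.

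Of the transporters, Slc7a5 (1.54), Slc1a4 (1.5), Slc7a11 (1.44) and Slc7a1 (1.00) passed, Slc7a1 by a narrow margin, while Slc6a9 at a fold of 1.998 did not. Wars was the synthetase that passed (1.05). TMM factors from protein-coding genes of own sequence ended the calls of Wars (0.93), Aldh18a1 (0.94) and Slc7a1 (0.88). The median of the 12 synthetases was 0.72, and 11 of 12 had a ratio above 0. Atf4 was at 881 CPM in labelled knockdown against 483 CPM in shControl (log2 ratio 0.87, 95% counting interval 0.84 to 0.90). The median over the 44 genes was 0.89, against 0.01 over all genes. The 36 members of own sequence, which share little with other genes, had a median of 0.82 with 15 higher and 0 lower. Beside this, the fibroblast markers had 2 higher and 3 lower of 6 measured and the melanocyte markers 0 higher and 3 lower of 7 measured. The fibroblast markers went in both directions, with Pdgfrb at 24.6 CPM in labelled knockdown against 5.91 CPM in shControl and Col3a1 at 0.0656 CPM in labelled knockdown against 8.70 CPM in shControl, and Dcn at 0 CPM in labelled knockdown against 2.50 CPM in shControl. Mitf (-1.17), Tyr (-1.37) and Mlana (-1.12) were the lower melanocyte markers, and the part of these differences in the members' ratios was not tested.

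In the library labelled overexpression against shControl, 38 of 43 ratios lay below 0. Of 43 genes that passed the filter on low values, 0 were higher and 14 lower beyond 2-fold, where 16.1% of 12881 genes tested were higher and 20.1% lower (36.3% in either direction). The gene that did not pass was Vldlr. The 14 were Atf4 (-1.16) and Atf5 (-2.23), the enzymes Shmt2 (-2.20), Cth (-1.92), Psat1 (-1.86), Phgdh (-1.52), Asns (-1.25), Mthfd2 (-1.18) and Psph (-1.02), the transporters Slc1a4 (-1.32) and Slc7a1 (-1.01), and the synthetases Tars (-1.79), Nars (-1.52) and Iars (-1.10). Shmt2 was at 80.6 CPM in labelled overexpression against 371 CPM in shControl, with a counting interval of -2.28 to -2.12 for the log2 ratio.

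Among the regulators that were not beyond 2-fold, Ddit3, Chac1, Trib3, Atf3 and Ppp1r15a had log2 ratios of 0.13, -0.32, -0.54, -0.35 and -0.82. The medians were -0.54 for the regulators, -1.10 for the enzymes, -0.62 for the transporters and -0.92 for the synthetases, against -0.02 over all genes. Slc7a11 had the highest ratio of the set, 0.64, at 27.1 CPM in labelled overexpression against 17.4 CPM in shControl. Beside this, the fibroblast markers had 1 higher and 4 lower of 6 measured and the melanocyte markers 1 higher and 1 lower of 7 measured, whose part was not tested.

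The contrast with the most members beyond 2-fold, and the one between 2 columns of plain counts, was labelled overexpression against labelled knockdown. Of the 44 genes, 36 were lower beyond 2-fold and 0 higher, where 14.9% of 12305 genes tested were lower and 17.7% higher (32.7% in either direction). The 36 comprised 9 regulators, 10 enzymes, 7 transporters and 10 synthetases. Vldlr had the lowest log2 ratio, -4.14, on 6 counts in labelled overexpression. Shmt2 was at 80.6 CPM in labelled overexpression against 930.3 CPM in labelled knockdown (log2 ratio -3.53, 95% counting interval -3.61 to -3.45). Other log2 ratios were -3.29 for Cth, -3.13 for Cebpb, -2.95 for Phgdh, -2.87 for Chac1, -2.81 for Slc1a4, -2.15 for Tars and -2.03 for Atf4. The 8 genes not beyond 2-fold were Ddit3 (-0.32), Cebpg (-0.66), Nupr1 (0.10), Aldh1l2 (-0.74), Got1 (-0.03), Slc7a11 (-0.79), Sars (-0.86) and Eprs (-0.70). The median was -1.78 over the 44 genes and -0.03 over all genes. Beside this, the fibroblast markers had 0 higher and 3 lower of 4 measured and the melanocyte markers 2 higher and 0 lower of 7 measured, whose part was not tested.

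**Figure D3:**
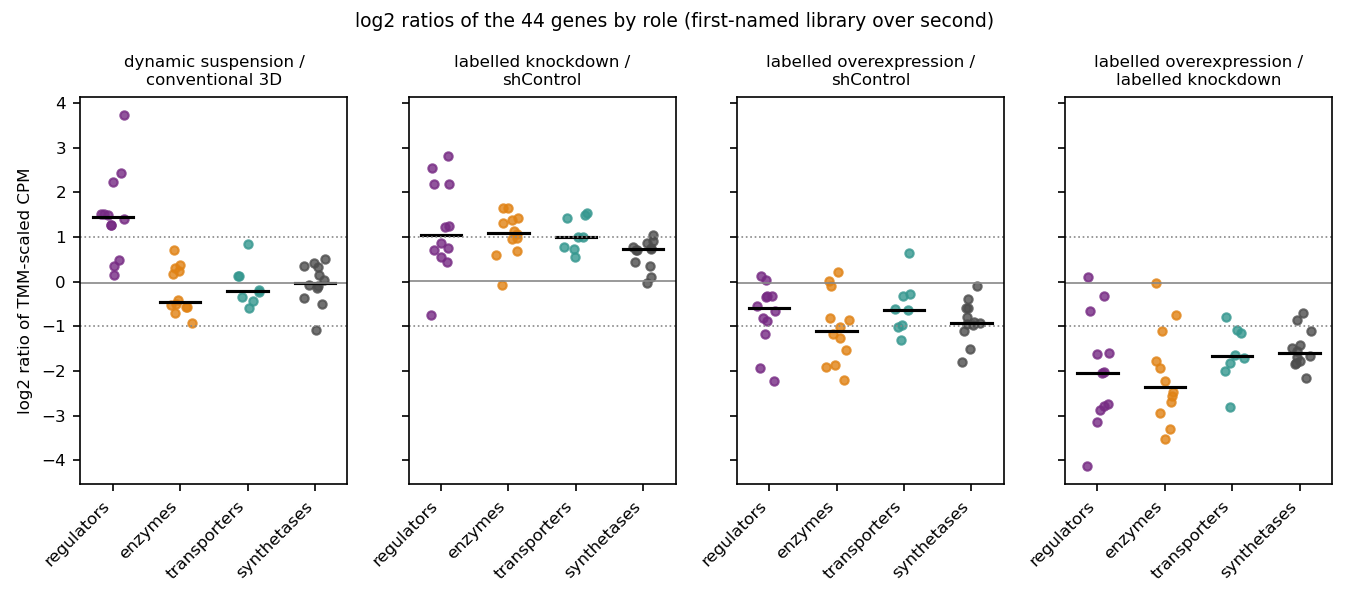
The log2 ratio of TMM-scaled CPM (vertical axis) of each of the 44 genes by role in 4 comparisons, 1 point per gene, with black bars at each role's median, dotted lines at 2-fold and a grey line at the median of all genes tested. In dynamic suspension against conventional 3D culture the regulators have a median of 1.46 and the enzymes -0.45, whereas in labelled overexpression against labelled knockdown all 4 roles lie low, with medians of -2.35 to -1.61.

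**Figure D4:**
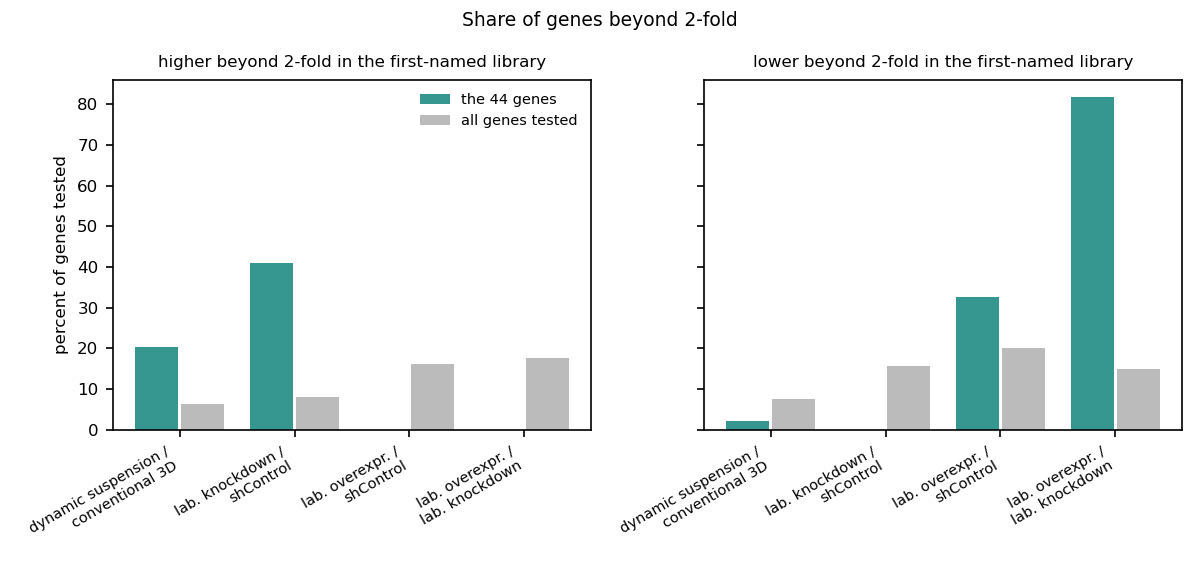
Percent of genes beyond 2-fold (vertical axis from 0), higher on the left and lower on the right, for the 44 genes and for all genes tested in each of 4 comparisons. For labelled overexpression against labelled knockdown 36 of 44 genes are lower, against 14.9% of all genes tested.

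Both culture libraries also had lower medians than shControl in the metabolic arm. The median log2 ratios of dynamic suspension were -1.05 for the enzymes, -0.58 for the transporters and -0.76 for the synthetases, but 0.41 for the regulators. Those of conventional 3D culture were -0.98, -0.44 and -0.66 for the metabolic roles and -1.06 for the regulators. These 2 comparisons share the shControl library with the 2 above that use it. In dynamic suspension against shControl 4 genes were higher and 15 lower, where 13.8% of all genes tested were higher and 14.8% lower (28.6% in either direction). The 4 were Ddit3 (2.85), Nupr1 (1.21), Ppp1r15a (1.21) and Atf3 (1.16). The 15 comprised 7 enzymes, among them Cth (-2.86), Psat1 (-2.21) and Shmt2 (-2.00), with 5 synthetases, 2 transporters and Cebpb. In conventional 3D culture against shControl 0 were higher and 18 lower, where 14.0% and 14.9% of all genes tested were (28.9% in either direction). Here 7 of 12 regulators were lower, with Cebpb at -2.62 and Atf4 at -2.25, beside 6 enzymes, 3 transporters and 2 synthetases. Total-count scaling changed the split of all genes in this comparison to 1275 higher and 2740 lower, against 1815 and 1920 with TMM, and lowered the median of all genes by 0.253.

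Of the upstream machinery, 0 to 5 of 15 genes were beyond 2-fold in each of the 4 main comparisons. Among these genes of the eIF2α kinases, their regulators and the eIF2 cycle, 0 were higher and 2 lower in labelled knockdown against shControl, Impact (-1.48), an inhibitor of the kinase GCN2, and Eif2s3x (-1.19), an eIF2 subunit. In labelled overexpression against shControl 0 were higher and 5 lower, all subunits of eIF2 or of its exchange factor eIF2B, with Eif2b1 (-1.63), Eif2b3 (-1.24) and Eif2s1 (-1.22) the lowest. In labelled overexpression against labelled knockdown Impact (2.04) and the RNA-sensing kinase gene Eif2ak2 (1.66) were higher, and Eif2b1 (-1.57) and Ppp1r15b (-1.17) lower. Between dynamic suspension and conventional 3D culture 0 of 15 were beyond 2-fold. The all-gene shares in either direction were 14.1% there, 23.7% in labelled knockdown and 36.3% in labelled overexpression against shControl. The share was 32.7% in labelled overexpression against labelled knockdown, so the counts in either direction were near or below the background. By direction, the 5 of 15 lower in labelled overexpression against shControl stood above the 20.1% of all genes tested that were lower. The 0 higher stood below the 16.1% that were higher, and neither difference was tested.

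Other genes reported as ATF4 targets split by comparison. Of all genes tested, 8.05% were higher and 15.7% lower in labelled knockdown against shControl, and 16.1% and 20.1% in labelled overexpression against shControl. The shares were 17.7% and 14.9% in labelled overexpression against labelled knockdown, and 6.44% and 7.64% in dynamic suspension against conventional 3D culture. Of 16 measured of 20, 8 were higher and 0 lower in labelled knockdown against shControl, with Pck2, the mitochondrial gluconeogenic enzyme, at a log2 ratio of 1.94 and Ndrg1 at 79.0 CPM in labelled knockdown against 25.9 CPM in shControl (1.61). Gdf15, a secreted stress cytokine, was at 1.97 CPM in labelled knockdown against 0.162 CPM in shControl. In labelled overexpression against shControl 5 were higher and 0 lower, Gdf15 (5.11), Hmox1 (2.20), Ndrg1 (1.77), Ddit4 (1.58) and Vegfa (1.57), of which Hmox1, Ndrg1, Ddit4 and Vegfa are also known hypoxia-responsive genes. Jdp2 (-2.33), Pck2 (-2.24) and Eif4ebp1 (-1.59) were the lowest of 5 lower genes in labelled overexpression against labelled knockdown, where Gdf15 (1.85) and Hmox1 (1.52) were higher. The 16 had a median log2 ratio of -0.02 there, with 8 above 0 and 8 below, against -1.78 for the 44 genes. In labelled overexpression against shControl the median of the 16 was 0.20, against -0.82 for the 43 members measured. In labelled knockdown against shControl it was 0.895, against 0.89 for the 44, and no difference between these medians was tested. In dynamic suspension against conventional 3D culture 4 of 15 were higher, led by Hmox1 at 471 CPM in dynamic suspension against 64.3 CPM in conventional 3D culture (2.87), and Ddit4 (-1.02) was lower, a call that total counts and TMM from protein-coding genes of own sequence each ended.

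Of 11 other genes, cytosolic synthetases together with associated proteins that are not synthetases, 1 was higher in labelled knockdown against shControl. This share was near the 8.05% of all genes tested. It was Vars, the valyl enzyme, at 653 CPM in labelled knockdown against 266 CPM in shControl (1.30), above each of the 12. The median of the 11 was 0.09, against 0.72 for the 12. The difference between these medians was not tested. The 17 mitochondrial synthetases had a median of 0.10, with Lars2 (1.03) higher and Rars2 (-1.02) lower, beside 8.05% and 15.7% of all genes tested. Both calls depended on the scaling. With DESeq2 size factors 1 of the 17 was higher and 0 lower. With TMM from protein-coding genes of own sequence 0 were higher and 1 lower, with a median of -0.02. Against labelled knockdown, the library labelled overexpression had 5 of the 11 lower, with Vars at -2.16, and 3 of the 17 lower. Of all genes tested 14.9% were lower there, a share that the 3 of 17 lay near.

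Of 23 other enzymes of amino acid and one-carbon metabolism measured, 1 was higher and 9 lower in labelled overexpression against shControl, where 16.1% of all genes tested were higher and 20.1% lower. Of the 23 ratios 14 lay below 0. The lower genes were led by Tyms, which makes thymidylate, at 8.28 CPM in labelled overexpression against 65.4 CPM in shControl (-2.98). Shmt1, the cytosolic counterpart of Shmt2, followed with a log2 ratio of -2.96. Cbs (1.91), the step before Cth in transsulfuration, was the higher one. In labelled knockdown Ass1, the arginine synthesis enzyme, was lower than in shControl (-1.37). Of 15 other amino acid transporters measured, 2 were higher and 0 lower in labelled knockdown than in shControl, beside 8.05% of all genes higher, the taurine carrier Slc6a6 at 1112 CPM in labelled knockdown against 260.4 CPM in shControl (2.09) and Slc38a7 (1.32). In dynamic suspension against conventional 3D culture 0 were higher and 3 lower, Slc6a6 (-1.97), Slc6a15 (-1.83) and Slc43a1 (-1.64). Of all genes tested 6.44% were higher and 7.64% lower there. In labelled overexpression against shControl 2 of the 15 were higher and 0 lower, beside 16.1% and 20.1% of all genes tested. The 15 had a median log2 ratio of 0.58 in that comparison, against -0.62 for the 8 transporters among the 44 genes. In labelled overexpression against labelled knockdown 1 was higher and 2 lower, beside 17.7% and 14.9%. The median of the 15 was then -0.10, against -1.67 for the 8, and neither difference was tested.

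The promoter core can be set beside these ratios. In labelled knockdown against shControl 7 of 15 genes with the core were higher beyond 2-fold (median log2 ratio 0.98), as were 8 of 21 genes whose windows lack it (median 0.77). Of the 8 genes with no window 3 were higher, beside 8.05% of all genes tested. In labelled overexpression against labelled knockdown 12 of 15 with the core were lower (median -1.81), as were 17 of 21 without it (median -1.93). So were 7 of the 8 with no window, beside 14.9% of all genes tested. In dynamic suspension against conventional 3D culture 3 of 15 with the core and 6 of 21 without it were higher, and in dynamic suspension against shControl the medians were -0.02 and -0.81. With no window 0 of 8 were higher in the former, beside 6.44% of all genes tested, and the median in the latter was -0.69. Got1 and Nupr1, which carry the same letters TTGCATCA as Chac1 and Atf3, had log2 ratios of -0.06 and -0.76 in labelled knockdown against shControl, where Chac1 and Atf3 had 2.55 and 1.25. No difference between these groups of genes was tested.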

How the data were processed

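RNA of 5 B16F10 libraries, 1 per group, was sequenced as paired 150 bp reads from strand-specific poly(A) libraries, per the labels' protocols. The submitters' processing notes name cutadapt, HISAT2 and StringTie with GRCm38.p6 and mm10; the counting program is not given in the sources used here. The deposited values of 3 columns are estimated counts by their pattern, and those of the labelled knockdown and overexpression columns are counts. Of 54100 identifiers, 54100 matched GENCODE M21, and 0 columns lacked a sample.

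Libraries were scaled by TMM (edgeR 4.0.16, R 4.3.3) with factors of 0.869 to 1.09. Ratios used a prior count of 2. The 95% interval of a ratio is exact conditional binomial (Clopper-Pearson), that of a level exact Poisson; both cover counting error only and are approximate for estimated counts. No test across conditions was run. Shared sequence means that another gene overlaps at least 10% of exon bases on either strand, or holds at least 10% of the 31-base words; it applied to 8 of the 44 genes, Ddit3, Cebpb, Phgdh, Psph, Aldh1l2, Slc6a9, Aars and Iars, Ddit3 through its own second identifier. The calling step was tested on simulated Poisson counts drawn from a shared mean profile. These hold no variation between cultures and no difference in column type, so they check the arithmetic and not the calls. The members and lists were chosen with earlier results of these data known. All 44 genes are named; full values are given for those beyond 2-fold in a main comparison, up to the 8 of widest span per role, and Atf4. No RefSeq window was used for Aldh1l2, Cars, Cth, Lars, Nars, Slc1a5, Slc7a5 and Wars. Some members of the lists are not reported here.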

Additional observations from a re-analysis of the deposited data

How the results depend on the processing

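Counts of genes beyond 2-fold were recomputed under 9 alternatives: DESeq2 size factors, total counts, TMM from protein-coding genes of own sequence, TMM from the 2 libraries compared alone, a prior count of 0.5, no filter, a filter at 10 CPM, a 1.5-fold threshold, and members of own sequence. In labelled overexpression against labelled knockdown the count of lower genes was 30 to 41 and that of higher genes 0 throughout. Total-count scaling, in dynamic suspension against conventional 3D culture, left 0 lower genes, in place of 1, and gave 10 higher genes, in place of 9, with Slc6a9 added. The 1.5-fold threshold gave 4 lower genes in dynamic suspension against conventional 3D culture, 35 higher and 1 lower in labelled knockdown against shControl, and 1 higher and 29 lower in labelled overexpression against shControl. It gave 8 higher and 23 lower in dynamic suspension against shControl and 3 higher in conventional 3D culture against shControl; more genes pass by its construction. TMM from own-sequence genes lowered the median of all genes against shControl by 0.126 in labelled knockdown and by 0.137 in labelled overexpression, giving 15 higher and 21 lower members; Wars, Aldh18a1 and Slc7a1 lost their calls in labelled knockdown. Called ratios of members kept their sign under every scaling and prior. No paired analysis was possible because each group has 1 library; for the same reason no library could be left out. Depth was lowest for Vldlr, with 6 to 108 counts; the next lowest, Cebpb, had 92 to 1166.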

Other observations

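Some pairs of members of the same role were also set against each other per length within each library. Ddit3 was at 1.99 times the TPM of Atf4 in dynamic suspension, 0.399 times in conventional 3D culture, 0.379 times in labelled overexpression, 0.116 times in labelled knockdown and 0.155 times in shControl. Dynamic suspension was the library in which Ddit3 exceeded Atf4. The light chain Slc7a5 was at 1.86 times the TPM of its heavy chain Slc3a2 in labelled knockdown and 1.18 times in labelled overexpression. It was at 0.796, 0.844 and 0.935 times in dynamic suspension, conventional 3D culture and shControl, which are the columns of estimated counts, so the kind of column moves with this ratio and its part in it was not tested. Psat1 was at 4.98 times the TPM of Psph in shControl and at 1.89 to 3.31 times in the other 4 libraries.

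Set beside Hif1a, Atf4 was at 270.1 CPM in dynamic suspension, 101 in conventional 3D culture and 216 in labelled overexpression, libraries with Hif1a at 384 to 542 CPM. It was at 881 CPM in labelled knockdown and 483 CPM in shControl, with Hif1a at 95.1 and 61.3 CPM. No relation over 5 libraries was tested.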
